A study of Homo sapiens with 12 samples.

Results

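The mRNAs of 9 matrix proteases and inhibitors were followed across 4 groups of human lens epithelial cells. They are the metalloproteinases MMP1, MMP2, MMP3, MMP10 and MMP14, the tissue inhibitors of metalloproteinases TIMP1, TIMP2 and TIMP3, and PLAU, the urokinase-type plasminogen activator. They were taken as a list of gene names, set with earlier results of these data known, from the 58735 genes of the count and FPKM tables, and each matched 1 row. The cells were HLE-B3, an immortalized human lens epithelial line grown in DMEM/F12 with 10% FBS, either wild type (WT) or labelled Atg7KO (here ATG7 KO), a knockout of a gene that autophagy needs. ATG7 KO cells were made with CRISPR/Cas9, by transfection of a guide vector, puromycin selection and picking of single clones. The paper checked the picked clones for the deletion by western blot. The labels do not say which clone was sequenced, nor that WT cells went through these steps. Each genotype was sequenced untreated (0 h) and after 12 h in 200 μM H2O2, with 3 biological replicates per group and 12 libraries in all. The untreated cells are labelled 0 h, and the labels do not say whether they were kept in culture for the same 12 h, so H2O2 and time in culture cannot be told apart. In RNA from bulk cells, fewer cells of a type and less RNA per cell cannot be told apart either.

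Matrix metalloproteinases are zinc enzymes that cut collagens, laminins and other proteins outside the cell, and most are secreted as inactive proenzymes. TIMPs bind the active site of these enzymes, and TIMP2 also helps MMP14, an enzyme anchored in the cell membrane, to activate the proenzyme of MMP2. Urokinase turns plasminogen into plasmin, a protease that degrades fibrin and can activate several pro-MMPs. In the lens, these enzymes act on the capsule, the thick basement membrane on which the epithelium sits, and they are known from wound healing and fibrosis after cataract surgery.

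The libraries held 15602183 to 17659496 reads on genes (median 17205174). The ATG7 mRNA lay between 2.21 and 2.81 FPKM (fragments per kilobase of gene, scaled by library size) in WT cells at 0 h and between 3.42 and 3.78 FPKM in ATG7 KO cells at 0 h. After H2O2 it lay between 1.91 and 1.99 FPKM in WT and between 2.11 and 2.35 FPKM in ATG7 KO cells. It was not lower in the libraries labelled ATG7 KO, so it cannot check that label. Replicate 1 of ATG7 KO at 0 h stood apart. Its mean Pearson r with its own group was 0.974, against 0.983 for the other two replicates and 0.991 in the other groups. Across genes its deviation from the group mean ran with gene length (Spearman rho -0.36, short genes high), so each test of the 9 genes that uses it is given with and without it. Without it fewer libraries are left in that group and the spread is pooled over the fit. A smaller adjusted p value there is not stronger evidence for a gene. Of 11 lens epithelium markers 3 or 4 were above 1 FPKM in each group. SOX2 was at 0 in every library, CRYAA had at most 1 read and FOXE3 at most 3, while VIM and GJA1, which other cell types share, led the list. SIX3 was above 1 FPKM in every group, at 3.06 FPKM in WT and 1.98 FPKM in ATG7 KO at 0 h. PAX6 passed 1 FPKM at 0 h only (1.27 FPKM in WT and 1.02 FPKM in ATG7 KO), and CRYAB in WT with H2O2 only (1.65 FPKM). Of 7 fibroblast markers 4 or 5 were above 1 FPKM. Their summed level was 627.2 to 659.0 FPKM in WT and 367.9 to 519.8 FPKM in ATG7 KO at 0 h, and 272.5 to 289.0 FPKM and 251.5 to 260.6 FPKM after H2O2. COL1A1 made up most of these sums, with means of 625.5 FPKM in WT and 437.3 FPKM in ATG7 KO at 0 h, and 271.8 and 243.1 FPKM after H2O2. LUM, another of the 7 fibroblast markers, was at 0.168 FPKM in WT and 9.52 FPKM in ATG7 KO cells at 0 h. The part of these markers in the results was not tested. All 4 endothelium markers were below 1 FPKM, and of 5 leukocyte markers LYZ alone passed 1 FPKM, in WT at 0 h.

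The 9 genes lie on 7 chromosomes of GRCh38, and each value counts reads over a whole gene. MMP10 (ENSG00000166670, chr11:102770503-102780628), MMP1 (ENSG00000196611, chr11:102789920-102798160) and MMP3 (ENSG00000149968, chr11:102835801-102843803) are neighbours on the minus strand of the MMP cluster of chromosome 11. MMP14 (ENSG00000157227) is at chr14:22836557-22849027, MMP2 (ENSG00000087245) at chr16:55389700-55506691 and PLAU (ENSG00000122861) at chr10:73909177-73917497, all on the plus strand. TIMP1 (ENSG00000102265) is at chrX:47582313-47586789 and TIMP3 (ENSG00000100234) at chr22:32801701-32863043, both on the plus strand, and TIMP2 (ENSG00000035862) at chr17:78852977-78925387 on the minus strand. TIMP1 lies inside the antisense gene SYN1 (6 to 35 reads per library) and TIMP3 inside SYN3 (at most 4 reads), and C10orf55 overlaps PLAU on the other strand (6 to 31 reads). WTAPP1, a pseudogene on the other strand of MMP10, MMP1 and part of MMP3, had at most 4 reads per library.

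RefSeq promoter windows on GRCh38.p14 were matched for 5 of the 9 genes. A total of 3 are shown here, cut where needed at the gene's first base in the deposited table, because MMP14 and TIMP3 were the members with the most similar profiles over the 12 libraries and MMP10 was near 0 without H2O2. They run 5′ to 3′ on the strand of the gene, from chr11:102780629-102780878 for MMP10 (minus strand), chr14:22836335-22836556 for MMP14 (plus strand) and chr22:32801455-32801700 for TIMP3 (plus strand). Capitals mark matches to 4 motifs searched on both strands. The AP-1 type of element was TGANTCA, the TATA box was TATAAA and the GC box was GGGCGG, which reads CCGCCC when on the opposite strand. The last was CCAAT, for which the opposite strand reads ATTGG. No match overlaps another.
MMP10: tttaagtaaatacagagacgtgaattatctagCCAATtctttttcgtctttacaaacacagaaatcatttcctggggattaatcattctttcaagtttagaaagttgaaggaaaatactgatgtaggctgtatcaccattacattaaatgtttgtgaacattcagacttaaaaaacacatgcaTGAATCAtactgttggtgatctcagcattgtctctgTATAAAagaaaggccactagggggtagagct
MMP14: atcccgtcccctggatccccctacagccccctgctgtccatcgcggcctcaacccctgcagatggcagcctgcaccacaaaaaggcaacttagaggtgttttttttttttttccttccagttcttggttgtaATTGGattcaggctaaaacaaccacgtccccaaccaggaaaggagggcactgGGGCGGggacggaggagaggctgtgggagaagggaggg
TIMP3: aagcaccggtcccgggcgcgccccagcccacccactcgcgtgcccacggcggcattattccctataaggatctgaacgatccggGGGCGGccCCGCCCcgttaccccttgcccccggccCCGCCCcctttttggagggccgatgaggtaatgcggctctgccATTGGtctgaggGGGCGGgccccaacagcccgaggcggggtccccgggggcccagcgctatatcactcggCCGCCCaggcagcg

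The MMP10 window held 1 TGAATCA, from 67 to 61 bases before the RefSeq start, 1 TATAAA from 31 to 26 bases before it, and 1 CCAAT. The MMP14 window held 1 GC box and 1 CCAAT box, and the TIMP3 window 5 GC boxes and 1 CCAAT box. Over 250 bases before the start, the GC content was 34.4% for MMP10, 56.8% for MMP14 and 72.4% for TIMP3, against a median of 58.0% over 35116 windows. Of those windows 6.57% held TGANTCA, 10.7% TATAAA, 42.6% the GC box and 32.0% the CCAAT box. The κB element was searched too and was not in these windows, and 5.21% of all windows held it. These matches describe the letters only.

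MMP14 was the member with the highest level in every group, and ATG7 KO cells had more MMP14, MMP2, PLAU, TIMP1 and TIMP3 mRNA than WT cells with and without H2O2. H2O2 went with more MMP14 and TIMP3 and less MMP2 and TIMP2 in both genotypes. PLAU differed in its response. It rose in WT cells after H2O2, while ATG7 KO cells had 72.7 ± 10.6 FPKM (SD, n = 3) at 0 h, against 17.4 ± 0.608 FPKM in WT, and 54.4 ± 2.34 FPKM after H2O2. MMP1, MMP3 and MMP10 were near 0 throughout. The order of FPKM levels, which are per gene length, was MMP14, TIMP2, TIMP1, PLAU, MMP2 and TIMP3 in WT cells at 0 h, where the ranges of MMP14 and TIMP2 overlapped. In ATG7 KO cells after H2O2 it was MMP14, TIMP1, PLAU, TIMP2, MMP2 and TIMP3, with no overlap between neighbours.

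**Figure D1:**
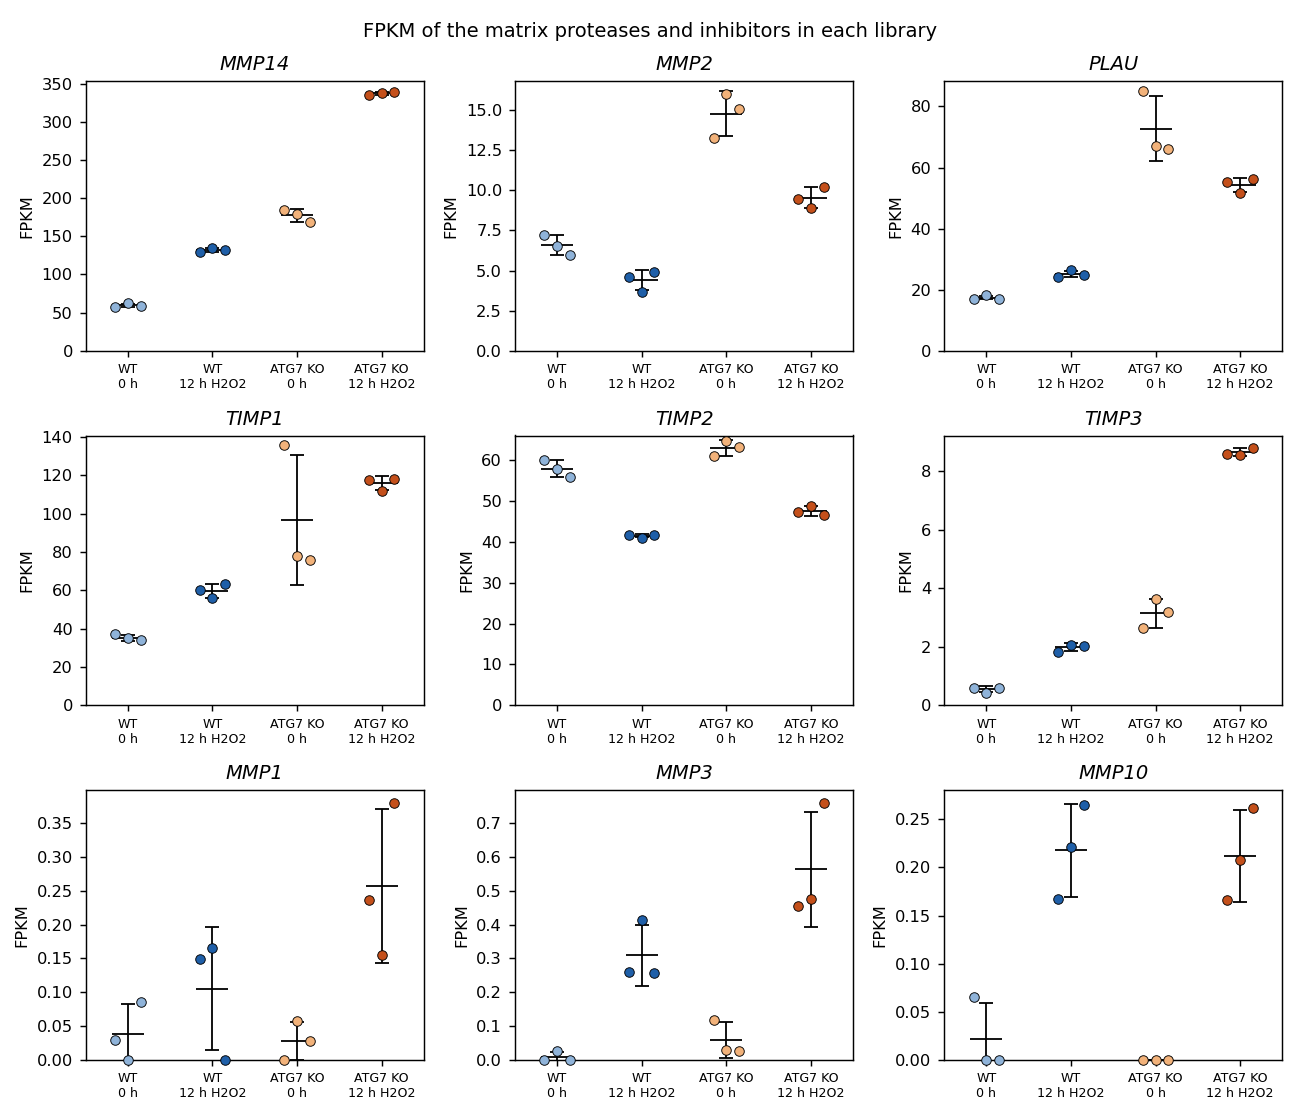
FPKM of each of the 9 genes (one panel each, linear axis from 0 and a scale of its own) in the 12 libraries, with points for libraries and black bars for the mean and SD of 3. Mean MMP14 was 59.5 FPKM in WT at 0 h and 337.3 FPKM in ATG7 KO with H2O2, while MMP1, MMP3 and MMP10 stayed below 1 FPKM in every library.

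Between ATG7 KO and WT cells after H2O2, 7 members could be tested with edgeR's quasi-likelihood test (15909 genes tested, Benjamini-Hochberg adjusted p under 0.01, with SE for the standard error of a log2 fold change). MMP2, MMP14, TIMP1, TIMP2, TIMP3 and PLAU were higher in ATG7 KO cells and none was lower, and MMP3 did not pass. Of all genes 27.7% were higher and 27.9% lower. MMP2, MMP14, TIMP3 and PLAU also had a log2 fold change beyond 1 and a mean above 1 FPKM in at least 1 group, the rule for differential expression, which 7.46% of genes met. At 0 h, 6 members were tested. MMP2, MMP14, TIMP1, TIMP3 and PLAU were higher in ATG7 KO cells and all 5 were differentially expressed, none was lower, and TIMP2 did not pass. Of 15357 genes 4.42% were higher, 3.28% lower and 3.50% differentially expressed. Without replicate 1 of ATG7 KO at 0 h, TIMP2 passed too, and 5734 of 15848 genes passed in either direction, against 1182 of 15357 with it.

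After H2O2 in WT cells, 6 members were tested. MMP14, TIMP1, TIMP3 and PLAU rose and MMP2 and TIMP2 fell, against 30.9% of 15913 genes that rose and 30.1% that fell. MMP14 and TIMP3 were differentially expressed, as were 12.5% of genes. In ATG7 KO cells 7 members were tested. MMP14 and TIMP3 rose and MMP2 and TIMP2 fell, against 13.6% of 15475 genes that rose and 12.4% that fell, and TIMP3 was differentially expressed, as were 11.2% of genes. Without untreated replicate 1, TIMP1 also passed as higher and PLAU as lower, and 9341 of 16002 genes passed, against 4025 of 15475 with it. MMP3 passed as well but is not counted here, because the filter on low counts admitted it through the treated libraries alone. These 4 comparisons share groups of libraries with each other, so they are given side by side and not as independent evidence.

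**Figure D2:**
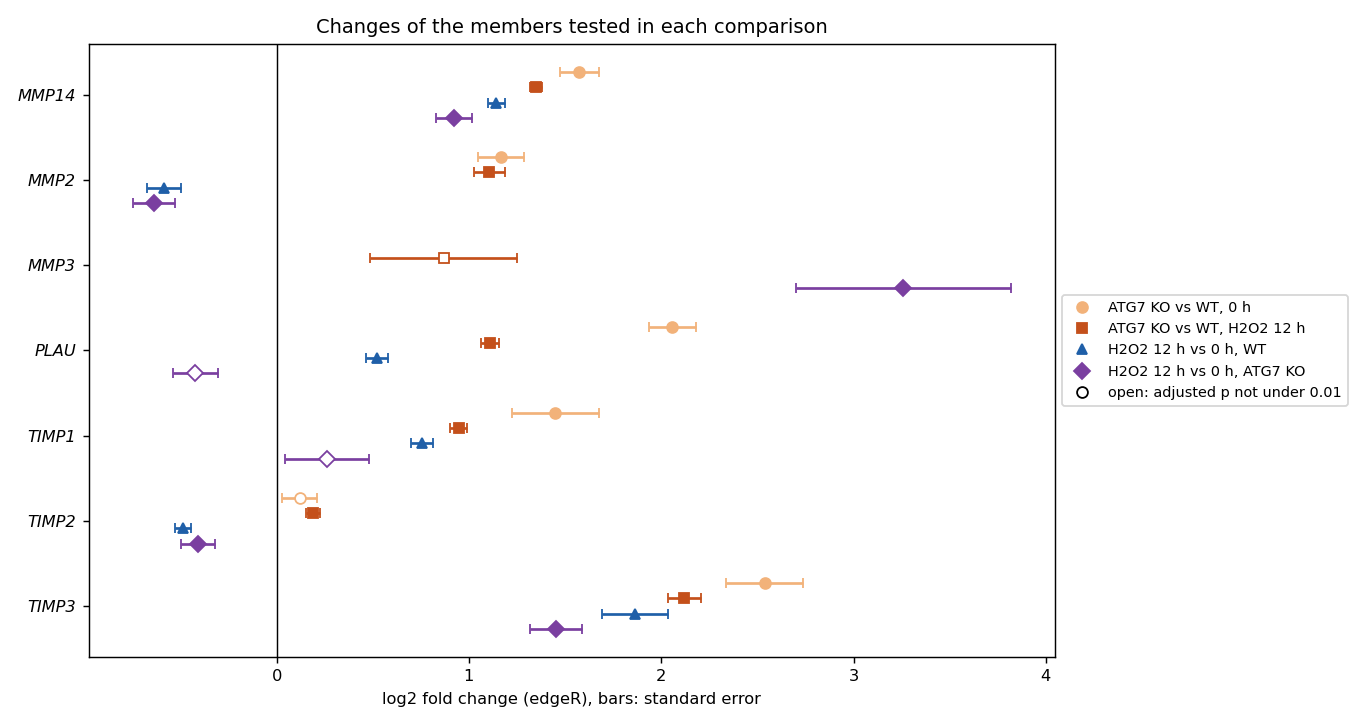
Log2 fold changes (x axis, edgeR) of the 7 members that could be tested (y axis), with bars of 1 standard error, in the 4 comparisons of groups. Filled symbols had an adjusted p under 0.01, and PLAU lay at 0.52 for H2O2 in WT and at -0.42 (open) in ATG7 KO cells. The filled MMP3 symbol for H2O2 in ATG7 KO cells is not counted, because the filter admitted MMP3 there through the treated libraries alone.

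MMP14, also called MT1-MMP, cuts collagen at the cell surface. Its level was 57.8, 62.2 and 58.3 FPKM in the WT libraries at 0 h and 129.5, 134.2 and 131.7 FPKM in WT after H2O2. ATG7 KO libraries had 184.9, 178.7 and 168.6 FPKM at 0 h and 335.1, 337.5 and 339.1 FPKM after H2O2. The 4 groups did not overlap, and even untreated ATG7 KO cells had more than H2O2-treated WT cells. Among all genes MMP14 ranked 548 by mean FPKM in WT at 0 h, 261 in WT with H2O2, 153 in ATG7 KO at 0 h and 52 in ATG7 KO with H2O2. The log2 fold change of ATG7 KO over WT was 1.57 at 0 h (SE 0.10, adjusted p = 0.000189 from edgeR) and 1.35 after H2O2 (SE 0.03, adjusted p = 3.12e-26). After H2O2 it rose by 1.14 in WT (SE 0.04, adjusted p = 8.53e-28) and by 0.92 in ATG7 KO cells (SE 0.09, adjusted p = 0.000382). Without replicate 1 of ATG7 KO at 0 h, these were 1.55 for ATG7 KO over WT at 0 h (adjusted p = 1.04e-105) and 0.95 for H2O2 in ATG7 KO cells (adjusted p = 3.96e-99). Both p values rest on a spread pooled over the fit and do not measure the replicates of MMP14 alone. The 10 genes tested on either side of MMP14 had a median log2 fold change of 0.48 for ATG7 KO over WT with H2O2, with 10 of the 20 higher and 2 lower. Of all genes 27.7% were higher and 27.9% lower. Around TIMP1 11 of 20 were higher and 1 lower, around TIMP3 8 and 4, around MMP2 5 and 4, around PLAU 4 and 4 and around TIMP2 3 and 11. Around each of MMP1, MMP3 and MMP10 6 were higher and 5 lower.

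MMP2, gelatinase A, degrades type IV collagen of basement membranes and is the enzyme whose proenzyme MMP14 activates. It had 7.24, 6.55 and 5.96 FPKM in WT at 0 h, 4.59, 3.69 and 4.89 FPKM in WT with H2O2, 13.2, 16.0 and 15.1 FPKM in ATG7 KO at 0 h and 9.45, 8.92 and 10.2 FPKM in ATG7 KO with H2O2. Every ATG7 KO library was above every WT library, and within each genotype the treated libraries were below the untreated ones, the opposite of MMP14. The log2 fold change of ATG7 KO over WT was 1.17 at 0 h (SE 0.12, adjusted p = 0.00110 from edgeR) and 1.11 after H2O2 (SE 0.08, adjusted p = 1.55e-12). After H2O2, MMP2 fell by 0.58 in WT (SE 0.09, adjusted p = 3.59e-07) and by 0.64 in ATG7 KO cells (SE 0.11, adjusted p = 0.00363) on the log2 scale. Without replicate 1 of ATG7 KO at 0 h it was 1.25 higher in ATG7 KO at 0 h (adjusted p = 5.53e-50) and fell by 0.72 in ATG7 KO with H2O2 (adjusted p = 3.42e-29). The call of the fall in ATG7 KO cells was lost whenever 1 of the other 5 libraries was left out, and so was that of the difference at 0 h without WT replicate 2 (adjusted p = 0.0136) or 3 (adjusted p = 0.0105).

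PLAU had 17.1, 18.1 and 17.0 FPKM in WT at 0 h and 24.2, 26.3 and 24.8 FPKM in WT with H2O2. In ATG7 KO cells it had 84.9, 66.9 and 66.2 FPKM at 0 h and 55.1, 51.7 and 56.2 FPKM with H2O2. The groups did not overlap, and the order ran upward with H2O2 in WT and downward in ATG7 KO cells. The log2 fold change of ATG7 KO over WT was 2.06 at 0 h (SE 0.12, adjusted p = 0.000178 from edgeR) and 1.11 after H2O2 (SE 0.05, adjusted p = 1.84e-19). It rose by 0.52 after H2O2 in WT (SE 0.06, adjusted p = 4.61e-11), and in ATG7 KO cells the log2 fold change was -0.42 (SE 0.12, adjusted p = 0.0255), which did not pass. Without replicate 1 of ATG7 KO at 0 h, the highest PLAU library, that change was -0.30 and passed (adjusted p = 3.67e-13), and the difference at 0 h was 1.94 (adjusted p = 4.71e-111).

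TIMP1, an inhibitor of most secreted MMPs, had 37.1, 34.9 and 33.9 FPKM in WT at 0 h and 59.9, 56.1 and 63.3 FPKM in WT with H2O2. ATG7 KO libraries had 135.7, 78.0 and 76.1 FPKM at 0 h and 117.8, 112.0 and 118.1 FPKM with H2O2. Untreated ATG7 KO replicate 1 was above every other library of the series, and through it the ATG7 KO groups at 0 h and with H2O2 overlapped, while no other groups did. TIMP1 is the shortest gene of the members, at 1541 bases. After H2O2, TIMP1 was higher in ATG7 KO than in WT cells by 0.95 (SE 0.05, adjusted p = 7.08e-18 from edgeR), and it rose in WT by 0.76 (SE 0.06, adjusted p = 2.95e-16). At 0 h the difference was 1.45 (SE 0.23, adjusted p = 0.00570) and 1.13 without that replicate (adjusted p = 2.31e-56). This call was lost whenever 1 of the 3 WT libraries was left out, with adjusted p from 0.0361 to 0.0396. In ATG7 KO cells the change with H2O2 was 0.26 (SE 0.22, adjusted p = 0.370) with all libraries and 0.58 (adjusted p = 4.44e-34) without untreated replicate 1, which passed.

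TIMP2, the inhibitor that also forms the complex of MMP14 and pro-MMP2, differed least between genotypes. It had 59.9, 58.0 and 55.9 FPKM in WT at 0 h, 41.8, 41.1 and 41.7 FPKM in WT with H2O2, 61.0, 64.7 and 63.2 FPKM in ATG7 KO at 0 h and 47.2, 48.9 and 46.7 FPKM in ATG7 KO with H2O2. Treated libraries were below untreated ones in both genotypes. It fell by 0.49 in WT (SE 0.04, adjusted p = 5.63e-14 from edgeR) and by 0.41 in ATG7 KO cells (SE 0.09, adjusted p = 0.00843), or by 0.44 without untreated replicate 1 (adjusted p = 6.16e-30). The call of this fall was lost whenever 1 of the other 5 libraries was left out. ATG7 KO cells had 0.19 more after H2O2 (SE 0.04, adjusted p = 3.28e-05), a call that the fit of all 12 libraries did not make (adjusted p = 0.0256). At 0 h the difference was 0.12 (SE 0.09, adjusted p = 0.405), and 0.15 without untreated ATG7 KO replicate 1 (adjusted p = 0.00227).

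TIMP3, which binds to the matrix and also inhibits ADAM proteases, was the lowest TIMP with the largest fold changes of the members that passed in the comparisons of genotypes. It had 0.598, 0.425 and 0.599 FPKM in WT at 0 h and 1.82, 2.07 and 2.03 FPKM in WT with H2O2. ATG7 KO libraries had 2.62, 3.62 and 3.18 FPKM at 0 h and 8.58, 8.53 and 8.79 FPKM with H2O2. The 4 groups did not overlap and stood in the same order as those of MMP14. Each library had 36 to 702 reads on the gene. ATG7 KO was above WT by 2.54 at 0 h (SE 0.20, adjusted p = 0.000406 from edgeR) and by 2.12 after H2O2 (SE 0.09, adjusted p = 8.37e-20). After H2O2 it rose by 1.86 in WT (SE 0.17, adjusted p = 2.67e-13) and by 1.45 in ATG7 KO cells (SE 0.13, adjusted p = 0.000263). Without untreated ATG7 KO replicate 1, the lowest of its group here, the difference at 0 h was 2.66 (adjusted p = 2.24e-41) and the rise in ATG7 KO cells 1.33 (adjusted p = 3.56e-40).

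MMP1 (interstitial collagenase), MMP3 (stromelysin-1) and MMP10 (stromelysin-2) were hardly detected. MMP3 had 0, 1 and 0 reads in the WT libraries at 0 h, 9, 13 and 9 in WT with H2O2, 4, 1 and 1 in ATG7 KO at 0 h and 16, 16 and 27 in ATG7 KO with H2O2. MMP10 had 2, 0 and 0 reads in WT at 0 h, 5, 6 and 8 with H2O2, none in ATG7 KO at 0 h and again 5, 6 and 8 with H2O2. MMP1 had 1, 0 and 3 reads in WT at 0 h, 5, 5 and 0 in WT with H2O2, 0, 2 and 1 in ATG7 KO at 0 h and 8, 5 and 13 in ATG7 KO with H2O2. Treated libraries were above untreated ones for MMP3 and MMP10 in both genotypes and for MMP1 in ATG7 KO cells, while MMP1 overlapped in WT cells.

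With reads summed over 3 libraries and scaled by library totals, MMP3 was 32.1-fold higher with H2O2 in WT cells (exact 95% interval 5.36 to 1310, from 1 and 31 reads) and 9.81-fold higher in ATG7 KO cells (interval 4.25 to 27.8). MMP10 was 9.85-fold higher in WT (interval 2.38 to 87.2). In ATG7 KO cells no untreated library had a read. With 3 reads set in place of that group's sum, MMP10 was 6.32-fold higher with H2O2, which is not an exact lower limit. MMP1 was 8.65-fold higher in ATG7 KO cells (interval 2.65 to 44.6), and its ratio of 2.59 in WT had an interval from 0.747 to 11.3. These intervals cover counting error only, and reads of one library are not independent molecules. An exact two-sided permutation test of 3 against 3 libraries cannot go below p = 0.1, which these differences without overlap reached. The filter on low counts admitted MMP3 in ATG7 KO cells through the treated libraries alone, so its edgeR call there is not counted. In edgeR's fit, MMP3 in ATG7 KO cells had a log2 fold change of 3.26 (SE 0.56, adjusted p = 0.00357), and 4.21 without untreated replicate 1 (adjusted p = 1.20e-07). The call was lost whenever 1 of the other 5 libraries was left out. Without the filter on low counts, edgeR also called MMP3 (adjusted p = 1.82e-05) and MMP10 (adjusted p = 0.00877) in WT cells and MMP10 in ATG7 KO cells (adjusted p = 0.00487), but not MMP1 in either (adjusted p = 0.365 in WT and 0.0147 in ATG7 KO).

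Between genotypes after H2O2, MMP3 was higher in each ATG7 KO library than in each WT library, with a log2 fold change of 0.87 (SE 0.38, adjusted p = 0.0472 from edgeR) that did not pass. MMP10 had 19 reads in each group of 3, a ratio of 0.967 (interval 0.484 to 1.93). MMP1 had 26 reads in ATG7 KO and 10 in WT cells, a ratio of 2.51 (interval 1.17 to 5.84), with overlap between the groups. At 0 h, no difference was detectable at this depth for MMP1, MMP3 or MMP10. Elsewhere in the same cluster, MMP7 (matrilysin) had 26 reads in WT at 0 h, 28 in WT with H2O2, 125 in ATG7 KO at 0 h and 62 in ATG7 KO with H2O2. MMP12 and MMP27 had 0 reads in all 12 libraries, and MMP8, MMP13 and MMP20 at most 3 in any.

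**Figure D3:**
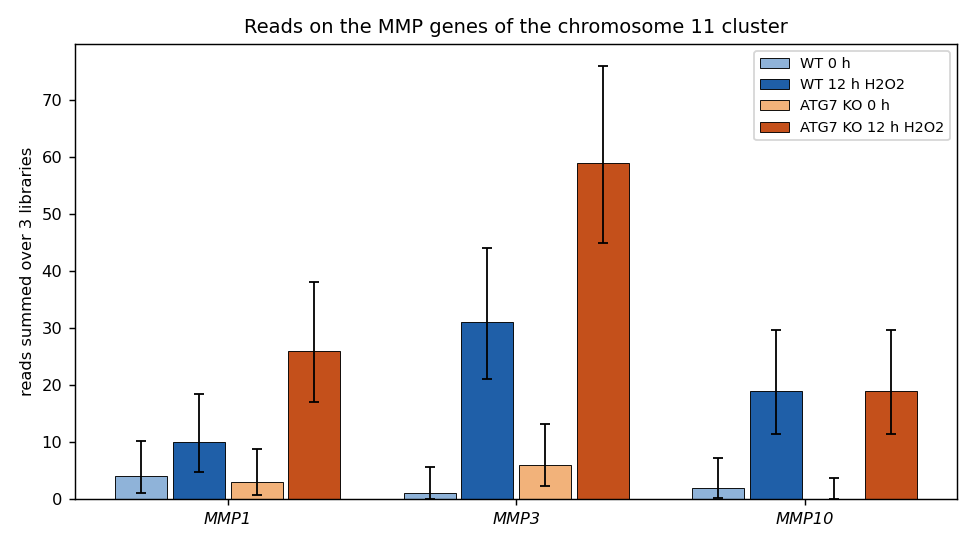
Reads of MMP1, MMP3 and MMP10 summed over the 3 libraries of each group (y axis), with exact 95% Poisson intervals that cover counting error only. MMP3 went from 1 to 31 reads with H2O2 in WT and from 6 to 59 in ATG7 KO cells, and MMP10 had 19 reads in both treated groups.

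Whether the H2O2 response itself differed between genotypes was tested as an interaction in the fit of all 12 libraries. PLAU was the 1 member of 7 that passed, with a response lower in ATG7 KO than in WT cells by 0.94 on the log2 scale (difference -0.94, SE 0.13, adjusted p = 0.000413 from edgeR). No member had a higher response in ATG7 KO cells. Of 16856 genes 7.02% had a higher and 7.01% a lower response in ATG7 KO cells. The fold and level rule was also passed by 5.17%, but not by PLAU. The difference for PLAU was -0.81 without untreated ATG7 KO replicate 1 (adjusted p = 8.05e-18). For MMP14 it was -0.22 (adjusted p = 0.0982), and -0.18 (adjusted p = 0.00252) without that replicate, which passed. It was -0.50 for TIMP1 (adjusted p = 0.138), -0.41 for TIMP3 (adjusted p = 0.141), -0.05 for MMP2 (adjusted p = 0.842), 0.08 for TIMP2 (adjusted p = 0.538) and -1.36 for MMP3 (adjusted p = 0.384). Without that replicate these were -0.17, -0.52, -0.12, 0.06 and -0.39, and none passed. The signs for MMP2, MMP3 and TIMP3 turned under other settings.

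The balance of enzyme and inhibitor mRNA was described by ratios of FPKM within each library, with no test. MMP14 over TIMP2 was 0.965 to 1.07 in WT at 0 h, 3.10 to 3.27 in WT with H2O2, 2.67 to 3.03 in ATG7 KO at 0 h and 6.91 to 7.26 in ATG7 KO with H2O2. No groups overlapped, and WT after H2O2 stood just above untreated ATG7 KO cells. The 5 MMPs over the 3 TIMPs had ratios of summed FPKM of 0.668 to 0.738 in WT at 0 h, 1.28 to 1.40 in WT with H2O2, 0.995 to 1.33 in ATG7 KO at 0 h and 1.99 to 2.05 in ATG7 KO with H2O2. MMP14 carried most of these MMP sums, since its FPKM was 7.99 to 9.79 times that of MMP2 in WT at 0 h and 33.2 to 37.8 times in ATG7 KO with H2O2. Of the summed FPKM of all 9 genes MMP14 made up 32.2% to 34.5% in WT at 0 h and 58.4% to 59.4% in ATG7 KO with H2O2, while MMP1, MMP3 and MMP10 together were at most 0.302% in any library. These are ratios of mRNA and not of active protein.

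**Figure D4:**
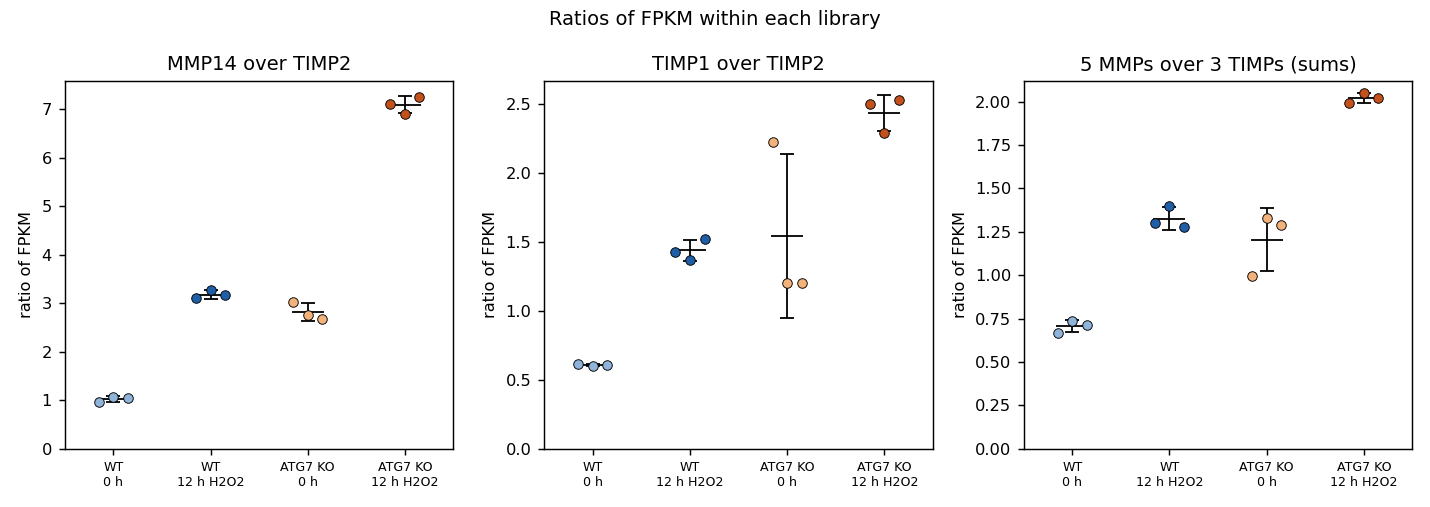
Ratios of FPKM (y axes, linear from 0) within each of the 12 libraries for MMP14 over TIMP2, TIMP1 over TIMP2 and the sum of the 5 MMPs over the sum of the 3 TIMPs, with black bars for the mean and SD of 3. MMP14 over TIMP2 was 0.965 to 1.07 in WT at 0 h and 6.91 to 7.26 in ATG7 KO with H2O2, and TIMP1 over TIMP2 was 2.23 in the untreated ATG7 KO library that stood apart.

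Within the TIMPs, TIMP2 made up 61.4% to 62.2% of the summed FPKM in WT at 0 h and 39.0% to 41.4% in WT with H2O2. It was 30.6% to 44.4% in ATG7 KO at 0 h and 26.9% to 28.9% in ATG7 KO with H2O2. TIMP1 was the larger share in every library but those of WT at 0 h, with 56.5% to 59.1% in WT with H2O2 and 66.1% to 68.0% in ATG7 KO with H2O2. TIMP3 was 0.456% to 0.663% of the sum in WT at 0 h and 4.94% to 5.06% in ATG7 KO with H2O2. TIMP4 was at 0 in all libraries.

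**Figure D5:**
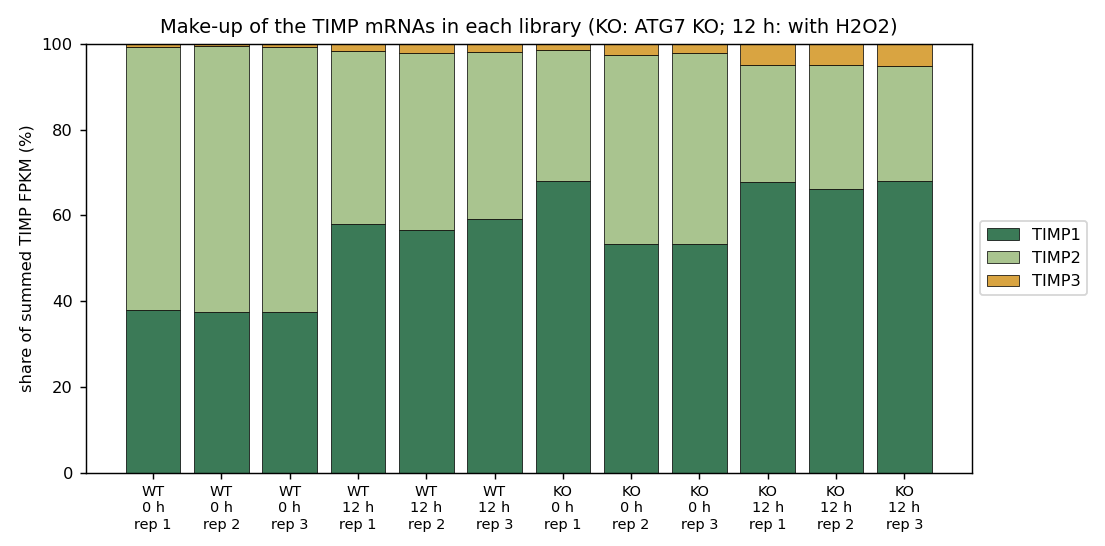
Share of TIMP1, TIMP2 and TIMP3 in the summed TIMP FPKM (y axis, %) in each of the 12 libraries. TIMP2 was 61.4% to 62.2% in WT at 0 h and 26.9% to 28.9% in ATG7 KO with H2O2, and untreated ATG7 KO replicate 1 had a TIMP1 share of 68.1%.

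Other genes of the same system were taken as lists, with no test of a list. Of all genes tested, 27.7% were higher and 27.9% lower in ATG7 KO cells after H2O2. With H2O2 in WT cells 30.9% rose and 30.1% fell. Of 9 tested other MMPs, 2 were higher and 2 lower in ATG7 KO than in WT cells after H2O2 (median log2 fold change 0.60, against -0.0022 over all genes tested). MMP9 (gelatinase B) was higher by 1.83 (adjusted p = 1.13e-15 from edgeR), at 2.80 ± 0.295 FPKM (SD, n = 3) in WT and 10.0 ± 0.553 FPKM in ATG7 KO cells. MMP16, another membrane-type MMP, was higher by 1.57 (adjusted p = 3.48e-17), and MMP25 was lower (log2 fold change -2.23, adjusted p = 1.71e-09) at levels near 1 FPKM or below. With H2O2 in WT cells 2 of the 9 rose and 1 fell. Of 8 tested other inhibitors 4 were higher and 1 lower in ATG7 KO cells after H2O2 (median 0.26), and 6 rose and 1 fell with H2O2 in WT cells (median 0.72, against -0.0053 over all genes tested). RECK, a membrane-anchored MMP inhibitor, was the one lower in both, with log2 fold changes of -0.55 (adjusted p = 1.19e-05) and -1.09 (adjusted p = 2.74e-17).

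PLAU belongs to the plasminogen system, whose 8 tested genes other than PLAU split into 4 higher and 4 lower in ATG7 KO cells after H2O2 (median -0.06). With H2O2 in WT cells 7 of the 8 rose and none fell (median 1.40). The shares of all genes were 27.7% higher and 27.9% lower between genotypes, and 30.9% up and 30.1% down with H2O2 in WT. SERPINB2, an inhibitor of urokinase that stands on this list and on that of the other inhibitors, was higher in ATG7 KO cells by 1.33 after H2O2 (adjusted p = 2.16e-23 from edgeR). Its means in WT were 12.0 ± 1.60 FPKM at 0 h and 65.4 ± 3.84 FPKM with H2O2. In ATG7 KO cells they were 103.1 ± 14.2 FPKM at 0 h and 165.7 ± 3.20 FPKM with H2O2. Like PLAU, SERPINB2 had a lower H2O2 response in ATG7 KO than in WT cells (interaction -1.76, adjusted p = 2.38e-05 from edgeR). Of the 8 genes, 3 had a lower response in ATG7 KO cells and none a higher one, against 7.01% and 7.02% of all genes. Chosen after their values were seen, PLAUR, the receptor of urokinase, had 45.8 FPKM in WT and 38.1 FPKM in ATG7 KO cells after H2O2 (log2 fold change -0.27, adjusted p = 4.52e-07), and PLAT, the tissue-type activator, 44.3 and 65.2 FPKM (0.55, adjusted p = 1.25e-14). PLG, which encodes plasminogen, was at 0 in all libraries.

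Among 13 tested ADAM and ADAMTS proteases 5 were higher and 3 lower in ATG7 KO cells after H2O2 (median 0.06), against 27.7% and 27.9% of all genes. With H2O2 in WT cells 4 rose and 4 fell, against 30.9% and 30.1% of all genes. ADAMTS12 and ADAM19 were differentially expressed, with log2 fold changes of 1.19 (adjusted p = 3.64e-18) and 1.05 (adjusted p = 4.74e-20). Of 8 tested genes listed as activators of MMPs (proteases, and BSG, which is not one) 2 were higher and 3 lower (median -0.07). With H2O2 in WT cells 2 of them rose and 3 fell. The AP-1 subunits are transcription factors known to act on MMP and urokinase genes. All 8 tested rose with H2O2 in WT cells (median 1.97). In ATG7 KO cells, with untreated replicate 1 kept, 4 of the 8 rose and none fell (median 0.94), against 13.6% and 12.4% of all genes. After H2O2, 1 was higher and 7 lower in ATG7 KO than in WT cells (median -1.02). The lowest were FOS (log2 fold change -3.99, adjusted p = 2.20e-10), FOSB (-3.20, adjusted p = 3.69e-20) and JUNB (-1.99, adjusted p = 6.75e-27).

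Profiles over the 12 libraries were compared by Pearson's r of log2 CPM (counts scaled by library size), as a description of libraries that share groups. The pair of members most alike was MMP14 and TIMP3 (r = 0.991), followed by MMP14 and TIMP1 (0.940), TIMP1 and TIMP3 (0.912) and TIMP1 and PLAU (0.904). Without untreated ATG7 KO replicate 1 these were 0.993, 0.994, 0.993 and 0.881. TIMP2 ran against MMP10 (-0.90, or -0.89 without it) and MMP3 (-0.79, or -0.82 without it). Among other genes with a mean above 1 FPKM in at least 1 group, the closest to MMP3 were PERP, LITAF and ZNHIT6 (0.979 to 0.981), to MMP10 ZNF28, KCNG3 and PLEKHB2 (0.974 to 0.978) and to MMP1 MTG2, DDX42 and NOP14-AS1 (0.893 to 0.925). Without that replicate these genes had r from 0.979 to 0.982, from 0.971 to 0.976 and from 0.874 to 0.930. With so few reads on these 3 MMPs, their profiles are mostly treated against untreated libraries. For MMP14, examined after its values were seen, the closest were P4HA2 (0.993), a subunit of collagen prolyl hydroxylase, LAMB3 (0.992), a laminin chain, and TIMP3. Without that replicate P4HA2 had 0.996 and LAMB3 0.992.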

How the data were processed

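RNA of HLE-B3 cells was sequenced in 12 libraries, 3 in each of 4 groups assigned from the sample labels. The deposited counts are whole reads per gene, not normalized. From these counts the authors computed the second table, FPKM, by gene length and library size. The submitters' processing notes name HISAT2 2.0.5, featureCounts 1.5.0-p3 and GRCh38. The strand setting and the rule for reads that map to several places are not given in the sources used here, so reads of overlapping genes cannot be told apart.

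Totals of 15602183 to 17659496 reads per library left the spread of 3 replicates as the main limit of precision, except for MMP1, MMP3 and MMP10, where few reads limit it. TIMP3 also had few reads in WT at 0 h, with 36 to 49 per library (sum 133, exact 95% interval 111 to 158). Counts were fitted with edgeR 4.0.16 in R 4.3.3 (filterByExpr with a minimum count of 10, TMM, robust quasi-likelihood test). Each comparison used its own 6 libraries, and the interaction all 12. P values were adjusted by Benjamini-Hochberg over all genes tested and called under 0.01. The rule for differential expression also asked for a log2 fold change beyond 1 and a mean above 1 FPKM in at least 1 group. The fit was tested on simulated data.

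The alternatives were DESeq2 1.42.0, RLE and upper quartile scaling, no filter, all 12 libraries in a fit, the replicate number as a block, a gene length correction (lowess, span 0.3), limma 3.58.1 on log2 of FPKM plus 1 or 0.1, and each library left out. Where leaving out left 2 libraries in a group, the spread was pooled over the fit. Summed reads of the 3 low MMPs were compared with exact 95% intervals. All members were named. Of each gene list the rule named at most 3 genes, those with the largest changes among the differentially expressed in ATG7 KO against WT with H2O2, and for the low MMPs the 3 genes with the highest Pearson r of log2 CPM (prior count 2). The other MMP genes of the cluster on chromosome 11 were named by position. The markers named (SOX2, CRYAA, FOXE3, VIM, GJA1, SIX3, PAX6, CRYAB, COL1A1, LUM, LYZ) and RECK, PLAUR, PLAT, PLG, TIMP4, P4HA2 and LAMB3 were chosen after their values were seen. So were the correlations without untreated ATG7 KO replicate 1. Some items are not reported here. The members and the lists were chosen with earlier results of these data known.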

Additional observations from a re-analysis of the deposited data

Results flagged for a closer look

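PLAU was flagged because its response to H2O2 differed between the genotypes by the test of the difference itself. Over all 16856 genes tested, 7.01% had a lower and 7.02% a higher response in ATG7 KO cells, so such a call is not particular to PLAU. Its difference was not beyond 1 on the log2 scale, so it did not meet the fold and level rule. The log2 response in ATG7 KO cells minus that in WT cells was -0.9438 (edgeR's interaction term, adjusted p = 0.000413). All 3 treated WT libraries were above all 3 untreated ones, and all 3 treated ATG7 KO libraries were below all 3 untreated ones. The difference was between -0.996 and -0.74 over 20 other settings and passed in each of them.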

How the results depend on the processing

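Over 33 fitted values and 530 alternative fits, 492 kept the direction and the side of the threshold, 25 lost a call, 6 gained one and 7 turned the sign. Members higher in ATG7 KO at 0 h numbered 5, and 3 to 6 when 1 library was left out, with 3 without WT replicate 2 or 3 and 6 without ATG7 KO replicate 1. Members that fell with H2O2 in ATG7 KO cells numbered 2, but 1 with no filter, 0 with the replicate block, 3 with DESeq2 and with all 12 libraries, and 0 to 3 when 1 library was left out, with 3 without untreated replicate 1. Members with a lower response in ATG7 KO numbered 1, and 1 to 2 when 1 library was left out. The interaction turned its sign for MMP3 (0.19 on FPKM plus 1 and 0.20 on FPKM plus 0.1), for TIMP3 (0.27 on FPKM plus 1) and for MMP2 (-0.158 to 0.0401 when 1 library was left out), none of which passed, and the cause was not tested. The fall of PLAU in ATG7 KO cells passed with DESeq2 (adjusted p = 0.00978) and in the fit of all 12 libraries (adjusted p = 0.00184). Same-numbered libraries did not deviate together (r from -0.04 to 0.10). This shows no shared effect of the replicate number, but cannot tell whether those libraries were prepared together, which the labels do not say. Under the replicate block TIMP2 (adjusted p = 0.0329), MMP2 (0.0113) and MMP3 (0.0107) lost their calls for H2O2 in ATG7 KO cells, with no other call of a member changed. Over all genes, 1182 passed at 0 h, 2511 with DESeq2, 3154 with all 12 libraries, 499 with the replicate block, 1803 with the gene length correction and 287 to 5734 when 1 library was left out, the highest without ATG7 KO replicate 1. The interaction called 2366 genes, 3703 with DESeq2, 4054 with no filter and 1332 to 5974 when 1 library was left out. H2O2 in ATG7 KO cells called 4025, 6528 with all 12 libraries and 1767 to 9341 when 1 library was left out. The highest of both ranges came without untreated ATG7 KO replicate 1.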
